A study of Mus musculus with 4 samples.

Results

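The ubiquitin-conjugating enzymes and the ubiquitin-specific proteases were taken from the deposited expression table as all genes whose symbol begins with Ube2 or is Usp followed by a digit. The choice gave 73 of 10790 listed genes, 31 named Ube2 and 42 named Usp, and it used no measured value. No row on chromosome Y met it. Usp6nl met it by name only, since it encodes a GTPase-activating protein for Rab proteins and not a deubiquitinase. RNA came from whole mouse lenses at postnatal day 4, in 2 libraries of Tdrd7-/- animals (called Tdrd7 null) and 2 of wild type controls, and each library held 15 pooled lenses. Tdrd7 encodes a Tudor-domain protein of RNA granules, and its loss causes cataract. No source used here gives the strain, the sex of the animals or the position of the targeted change. The p-values below rest on the spread between the pools, which the labels call biological replicates. The test used, limma, joins that spread for each gene with the spread typical of genes at a similar level. The latter carries more weight, with 11.1 prior against 2 residual degrees of freedom.

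Ubiquitin is a small protein that is attached to other proteins in a relay. An E1 enzyme activates it, an E2 conjugating enzyme (the Ube2 family) carries it, and an E3 ligase selects the substrate. Chains of ubiquitin send many proteins to the proteasome, while other forms of attachment alter trafficking, DNA repair or chromatin. Proteases of the Usp family, the largest group of deubiquitinases, remove ubiquitin or trim its chains. In the lens the pathway is known for the turnover of proteins while fibre cells differentiate and lose their organelles.

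Values are given as scaled reads, the deposited unit, in which the reads of a gene appear to be divided by a factor common to the whole library, with no correction for gene length. On that reading of the values, reads in listed genes ranged from 33920522 to 42767535 per library. Tdrd7 stood at 1188 and 972 scaled reads in control replicates 1 and 2 and at 165 and 96.6 in Tdrd7 null replicates 1 and 2, a log2 fold change of -3.08 with an SE of 0.168 (limma adjusted p = 1.17e-06). Both Tdrd7 null libraries lay far below both controls. Fibre markers, crystallins included, summed to between 159734 and 180089 and epithelial markers to between 751 and 783, so markers of both lens cell types were present in all 4 libraries. Single markers differed within these sums. Of 8 epithelial markers Foxe3 (log2 fold change -0.43) and Slc2a1 (-0.27) fell and Gja1 (0.33) rose, and of the fibre markers Lim2 (-0.25) fell. Lim2 is listed under 2 gene identifiers, and its other entry, at a far lower level, was at -0.02 and was not called. None of the markers searched for macrophages, blood, retina or muscle was listed, and 8 of 10 endothelial markers were, with sums of 19.2 to 28.4 that overlapped between genotypes. Pericyte markers (4 of 5 listed) summed to 47.1 and 37.2 in the controls and 32.1 and 34.6 in the Tdrd7 null libraries. Markers of the ciliary body and iris (3 of 7 listed) summed to 110 and 114 against 96.3 and 91.8. Of each of these last lists 2 genes were called lower, and both sums were lower in both Tdrd7 null libraries. With the trend on GC content and length removed, as described below, 0 of these markers were called, with Foxe3 at -0.13. The Lim2 entry that fell was not tested in that way. The part of these marker differences in the results below was not tested. In bulk RNA, fewer cells of a type and less RNA per cell cannot be told apart.

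All 73 genes had a mean of at least 1 scaled read and were tested. They ranged widely in level, with 14 at a mean of 50 or more and 10 under 5. Ube2o, an unusually large enzyme that can act as E2 and E3 at once, had the highest mean. The next were Usp9x, a broad deubiquitinase encoded on chromosome X, and Ube2d3, an E2 that works with many ligases. They were followed by Usp47, Ube2d2a, Ube2m, Usp5, Usp7, Usp24 and Usp19. Usp9x stood at 199 and 185 scaled reads in the controls and at 198 and 220 in the Tdrd7 null libraries, which overlap. The lowest was Usp13, with a mean of 1.81.

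Levels of different genes can be compared only per length. Divided by the length of the principal transcript in kb, the mean over the 4 libraries was 56.8 scaled reads per kb for Ube2m and 56.0 for Ube2o. Ube2m, the E2 that carries the ubiquitin-like protein NEDD8, ran from 51.9 to 61.2 over the libraries and Ube2o from 49.1 to 64.0, so the ranges overlapped. Below them came Ube2d3 at 44.8, Ube2d2a at 34.4 and Usp5, which takes apart unanchored chains, at 25.2. These 3 did not overlap each other in any library on the per-kb scale, and only Ube2d3 overlapped Ube2o, with 51.1 in Tdrd7 null replicate 2 against 49.1 for Ube2o in the same library.

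Summed over the family, the genotypes did not separate. The Ube2 genes summed to 1192 and 1174 scaled reads in the controls and 1180 and 1187 in the Tdrd7 null libraries. The Usp genes summed to 1375 and 1315 against 1338 and 1363. The control and Tdrd7 null ranges overlapped for both families. All 73 together took between 0.242% and 0.267% of the scaled total.

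Among single genes, 16 changed between genotypes, with 7 higher and 9 lower in the Tdrd7 null lenses. A change was called at a limma adjusted p under 0.05 over all 10696 genes tested, on log2(scaled reads + 1). Of all tested genes 18.0% were called, 10.1% higher and 7.88% lower, so the share of 21.9% among the 73 was near the background. At an unadjusted p under 0.05 in limma there were 29 of the 73 (39.7%), against 33.1% of all tested genes. Their median log2 fold change was 0.02, against -0.01 over all genes. The Ube2 genes were called mainly upward (6 higher and 3 lower of 31) and the Usp genes mainly downward (1 higher and 6 lower of 42). The difference between the families was not tested. Changes were small, and none of the 73 reached 1.5-fold on this scale, which 65 of all tested genes did. Both Tdrd7 null libraries stood above both controls for 24 of the 73 (30.2% of all tested genes) and below them for 23 (31.3%). The genotypes were without overlap for all 1077 genes called higher and all 843 called lower. For a called gene, a lack of overlap therefore adds nothing to the call.

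**Figure D1:**
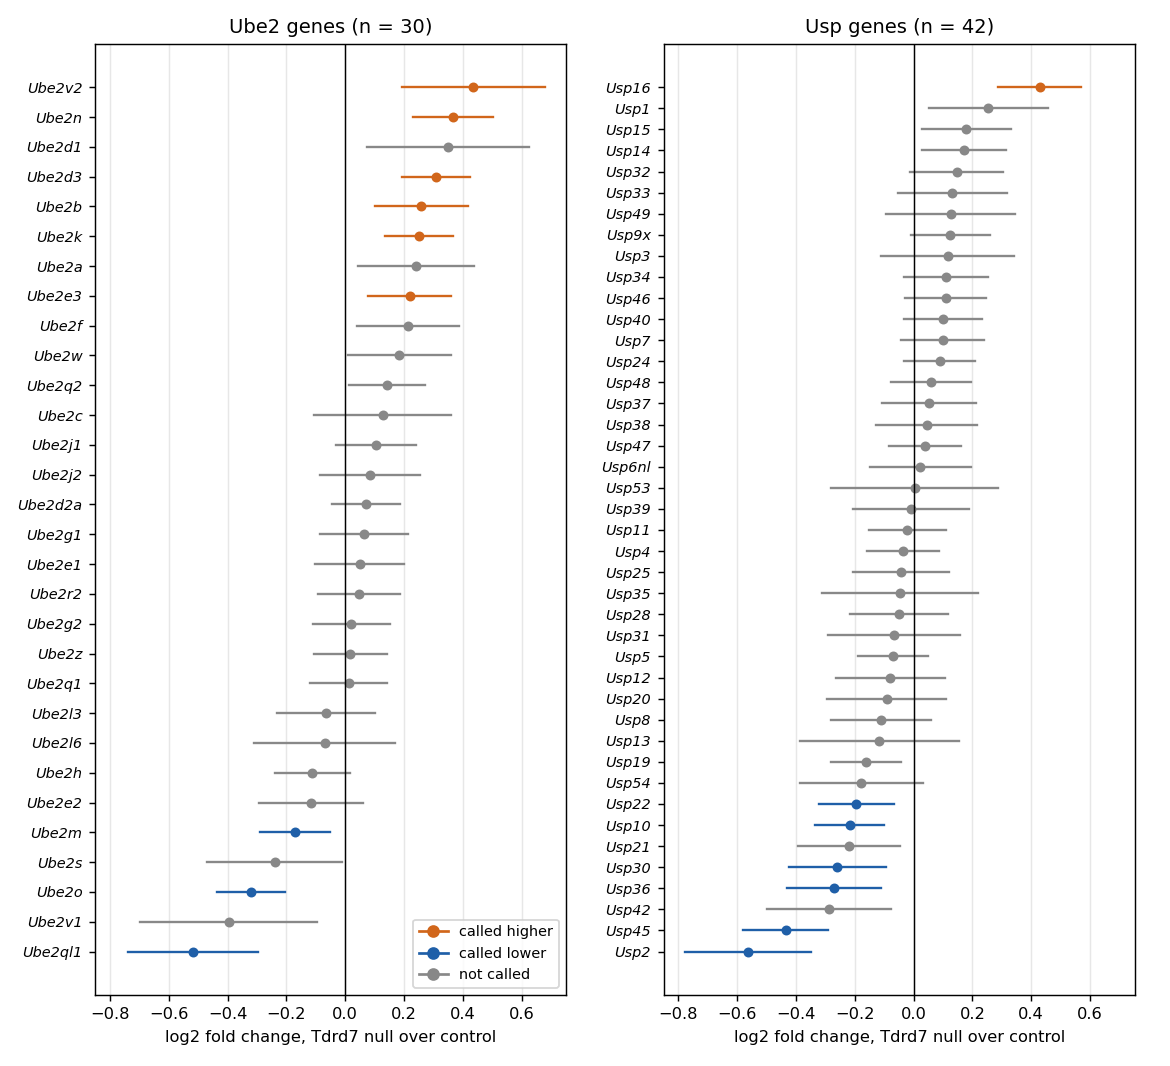
Log2 fold change of Tdrd7 null over control for 30 of the 31 Ube2 genes (left; 1 that was not called is not shown) and the 42 Usp genes (right), with bars for the 95% confidence interval from limma (n = 2 libraries per genotype). Called genes run from 0.22 to 0.44 on the higher side and from -0.17 to -0.56 on the lower side, and most intervals of genes not called hold 0.

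Usp2 had the largest decrease of the group. It encodes a deubiquitinase known for its circadian rhythm and for stabilizing cyclin D1. The controls held 8.73 and 7.59 scaled reads of it and the Tdrd7 null libraries 5.45 and 4.93. Both Tdrd7 null libraries were below both controls. In limma its log2 fold change was -0.56 with an SE of 0.0988 (adjusted p = 0.00351). Usp2 lies on chromosome 9 from 44067021 to 44095627 in GRCm38 and shares 200 nt of exonic sequence with each of the predicted genes Gm49380 and Gm39325 on the opposite strand. Without control replicate 1 the value was -0.47 and the limma adjusted p 0.0591.

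Usp45 also fell. It encodes a deubiquitinase that acts on the DNA repair nuclease subunit ERCC1. In the controls it reached 54.4 and 50.6 scaled reads, and in the Tdrd7 null libraries 40.9 and 36.4, again without overlap. In limma its log2 fold change was -0.44 with an SE of 0.0673 (adjusted p = 0.00208), and the call held when any 1 library was left out, with values from -0.35 to -0.52. Usp45 lies on chromosome 4 from 21767156 to 21837872, 24.1 Mb from Tdrd7 itself. Its exons share only 57 nt with another gene, Tstd3. The other 6 Ube2 and Usp genes on this chromosome were not called, including Ube2r2 at 4.77 Mb from Tdrd7 (log2 fold change 0.05) and Ube2j1 at 12.9 Mb (0.11). Whether sequence linked to the targeted locus had a part in the Usp45 result was not tested.

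Usp16 was the only Usp gene that rose. It encodes a protease that removes ubiquitin from histone H2A. It had 28.8 and 29.0 scaled reads in the controls, and 37.3 and 41.3 in the Tdrd7 null libraries lay above both. In limma its log2 fold change was 0.43 with an SE of 0.0649 (adjusted p = 0.00187). Usp16 and Usp45 are relatives, with 65.4% identity over their aligned coding bases, and their changes ran in opposite directions. Usp16 (chromosome 16, 87454703 to 87483517) shares 192 nt with Cct8 on the opposite strand. Cct8, a chaperonin subunit, was also higher, with 219 and 217 scaled reads against 264 and 276. The kit did not mark strand, so reads in the shared stretch could not be assigned. Of the read-length (75-nt) stretches of the longest Usp16 transcript, however, 0% occur in another gene.

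The Ube2d and Ube2e enzymes, which work with many ligases, were read together with Ube2l3 and Ube2w, and 2 of these 8 genes rose. Over all tested genes 10.1% were called higher. The 8 had a median GC content of 41.2%, and of all 2764 genes under 45% GC 751 were called higher. With the trend on GC content and length removed, as described below, 0 of the 8 were called. Ube2d3 stood at 154 and 152 scaled reads in the controls and 184 and 196 in the Tdrd7 null libraries, a log2 fold change of 0.31 with an SE of 0.0530 (limma adjusted p = 0.00317). Ube2e3 stood at 29.4 and 28.4 against 32.3 and 35.4 (log2 fold change 0.22, limma adjusted p = 0.0350). The Tdrd7 null libraries were above the controls for both genes. The Ube2e3 call ended without control replicate 1, without control replicate 2 and without Tdrd7 null replicate 2, at limma adjusted p of 0.113, 0.187 and 0.228. The close relatives did not pass. Ube2d2a, whose coding sequence is 86.3% identical to that of Ube2d3, had 84.2 and 82.3 against 89.1 and 85.9 (log2 fold change 0.07). Ube2d1 was at 0.35 with a limma adjusted p of 0.0751, from levels under 3 scaled reads. Ube2e1, Ube2e2, Ube2l3 and Ube2w were at 0.05, -0.12, -0.07 and 0.18. The Ube2l3 value is uncertain, since 58.2% of the read-length stretches of its transcript occur in another gene as well, mostly in Ydjc.

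The enzymes that build signalling chains through an internal lysine of ubiquitin, used in DNA damage tolerance and immune signalling, form a heterodimer of Ube2n with Ube2v1 or Ube2v2. Ube2n rose, from 22.0 and 22.3 scaled reads to 28.9 and 28.7, a log2 fold change of 0.37 with an SE of 0.0624 (limma adjusted p = 0.00309). The replicates of each genotype were nearly equal. Ube2v2, an inactive E2 variant that positions the acceptor ubiquitin, rose from 3.50 and 3.15 to 5.29 and 4.42 (log2 fold change 0.44, limma adjusted p = 0.0198), and the call ended on leaving out either control or Tdrd7 null replicate 1. Ube2v1 was at -0.40 and did not pass (limma adjusted p = 0.0649). Its value is uncertain, since 89.8% of the read-length (75-nt) stretches of its transcript occur in another gene as well, mostly in the read-through gene Gm20431. For Ube2n that share is 10.2%, in Ube2n-ps1.

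Ube2a and Ube2b, which attach ubiquitin to histone H2B and to the replication clamp, had log2 fold changes of 0.24 and 0.26. Ube2b rose from 13.3 and 14.4 scaled reads to 16.9 and 16.6 (limma adjusted p = 0.0292), and the call was lost when any 1 library was left out. Ube2a, at 11.2 and 11.9 against 12.6 and 15.3, did not pass (limma adjusted p = 0.0821). Of the 6 enzymes of cullin-dependent and endoplasmic reticulum degradation, Ube2k rose, from 56.8 and 55.8 to 66.8 and 67.6 (log2 fold change 0.25, limma adjusted p = 0.00881). Without control replicate 1 or without control replicate 2 Ube2k did not pass, at limma adjusted p of 0.0575 and 0.0720. The other 5 (Ube2g1, Ube2g2, Ube2j1, Ube2j2 and Ube2r2) lay between 0.02 and 0.11 and were not called.

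Ube2o, the highest of the 73, fell. It is known for clearing unassembled proteins from maturing red blood cells. It stood at 333 and 314 scaled reads in the controls and 262 and 256 in the Tdrd7 null libraries, a log2 fold change of -0.32 with an SE of 0.0535 (limma adjusted p = 0.00285). Every Tdrd7 null value was below every control value, as for every gene called lower. The Ube2o call held without any 1 library. Ube2ql1, at 4.94 and 5.09 against 3.14 and 3.27, had the second largest decrease (log2 fold change -0.52, limma adjusted p = 0.00585), and did not pass without control replicate 1 or 2 (limma adjusted p = 0.0569 and 0.0641). Ube2m fell slightly, from 87.2 and 90.0 to 80.9 and 76.4 (log2 fold change -0.17, limma adjusted p = 0.0488). That call also ended without either control replicate (1 or 2) or without Tdrd7 null replicate 2.

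Ube2f, the other E2 for NEDD8, was at 0.21 (limma adjusted p = 0.0835). Ube2l6, the E2 for the interferon-induced modifier ISG15, was at -0.07. Of the mitotic pair that serves the anaphase-promoting complex, Ube2c was at 0.13 and Ube2s at -0.24, and neither passed (limma adjusted p = 0.439 and 0.135). The low value of Ube2s came from Tdrd7 null replicate 2, with 13.8 against 18.8, 19.1 and 19.3 in the others. Exons of Ube2s share 183 nt with the ribosomal protein gene Rpl28, which was lower in both Tdrd7 null libraries (12.5 and 12.8 against 8.73 and 8.95). Of the read-length stretches of the longest Ube2s transcript, however, 0% occur in another gene. Markers of proliferating cells summed to 153 and 148 in the controls and to 148 and 174 in the Tdrd7 null libraries, and 1 of 17 was called.

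Among the Usp genes of chromatin and DNA repair, Usp22 and Usp36 fell beside the rise of Usp16. Usp22, the ubiquitin protease of the SAGA coactivator, stood at 43.5 and 42.1 scaled reads against 38.3 and 36.3 (log2 fold change -0.19, limma adjusted p = 0.0390). Usp36, a nucleolar protease, stood at 17.5 and 18.7 against 15.3 and 14.3 (log2 fold change -0.27, limma adjusted p = 0.0243). The genotypes did not overlap for either gene, as for every called gene. Both calls ended without control replicate 1, without control replicate 2 and without Tdrd7 null replicate 2. The other 6 genes of this class were not called, with Usp42 at -0.29 (limma adjusted p = 0.0563), Usp1 at 0.25 (0.0762) and Usp21 at -0.22 (0.0749) closest to the threshold.

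Of the proteases at endosomes, the endoplasmic reticulum and mitochondria, Usp30 fell. It sits in the mitochondrial outer membrane and opposes the removal of mitochondria by Parkin. Control libraries held 15.5 and 14.5 scaled reads of Usp30 and Tdrd7 null libraries 12.0 and 12.8 (log2 fold change -0.26, limma adjusted p = 0.0340). Usp30 shares 329 nt with Alkbh2 on the opposite strand, and it did not pass when either control or Tdrd7 null replicate 1 was left out. Usp10, which binds the stress granule proteins G3bp1 and G3bp2, fell from 68.9 and 69.3 to 60.2 and 58.3 (log2 fold change -0.22, limma adjusted p = 0.0166). For Usp10 the limma adjusted p was 0.0906 without control replicate 1, 0.0986 without control replicate 2 and 0.0827 without Tdrd7 null replicate 2. Usp19 was at -0.16 (limma adjusted p = 0.0579) and Usp15 at 0.18 (0.0955).

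The Usp genes of the proteasome and of free chains (Usp5, Usp13 and Usp14) were at -0.07, -0.12 and 0.17, with none called. Usp14 shares 2169 nt of exonic sequence with Thoc1 on the opposite strand, so its value is uncertain. Usp39, a splicing factor that lacks peptidase activity, was at -0.01, and Usp53 and Usp54 were at 0.00 and -0.18, with none called. Of the 57 genes without a call, 13 had 95% intervals that left out 0, and the interval reached between 0.11 and 0.30 (median 0.16) to either side over all 73. The median absolute difference between replicates of the 73 genes was 0.07 on the log2 scale for the controls and 0.08 for the Tdrd7 null libraries. Between the genotype means it was 0.12. Replicate differences compare single libraries and the genotype difference compares means of 2, so the measures are unlike.

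**Figure D2:**
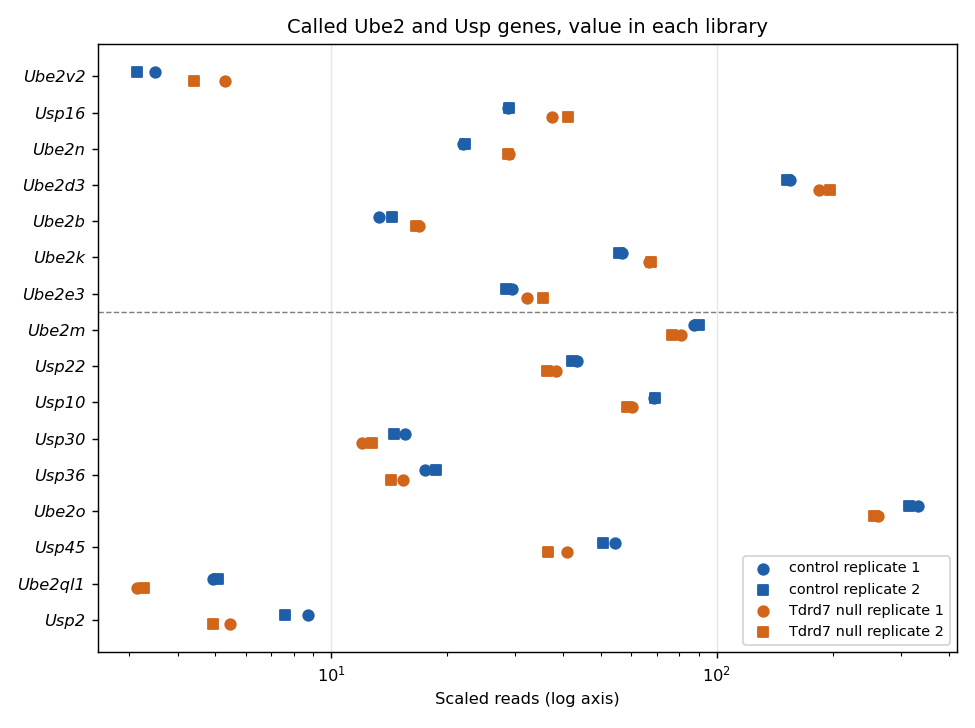
Scaled reads (log axis) of the 16 called Ube2 and Usp genes in each of the 4 libraries, with controls in blue and Tdrd7 null libraries in orange. Genes above the dashed line were called higher and those below it lower, from Ube2v2 at 3.15 to 5.29 to Ube2o at 256 to 333. The genotypes do not overlap for any of them, as for all 1077 genes called higher and 843 called lower among all tested genes.

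The direction of change followed base composition. Of the 27 genes whose longest transcript held under 45% G and C, 6 were called higher and 1 lower, and the 1 was Usp45. Of the 15 above 53%, 0 were called higher and 7 lower, and the 31 between held 1 of each. Over all genes there were 33 higher and 661 lower of the 3421 above 53% (19.3% lower, against 46.7% of the 15), and 292 and 165 of the 4471 between. The median GC content was 40.6% for the genes called higher and 54.6% for those called lower. Over the 73 genes the log2 fold change and the GC content had a Pearson r of -0.63 and a Spearman rho of -0.63 (Ube2 -0.69 and -0.66, n = 31; Usp -0.56 and -0.64, n = 42). Those points come from the same 4 libraries and share depth and preparation. Over all genes with a transcript the Pearson r was -0.59, and of the 2764 genes under 45% GC 751 were called higher and 11, or 0.398%, lower.

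**Figure D3:**
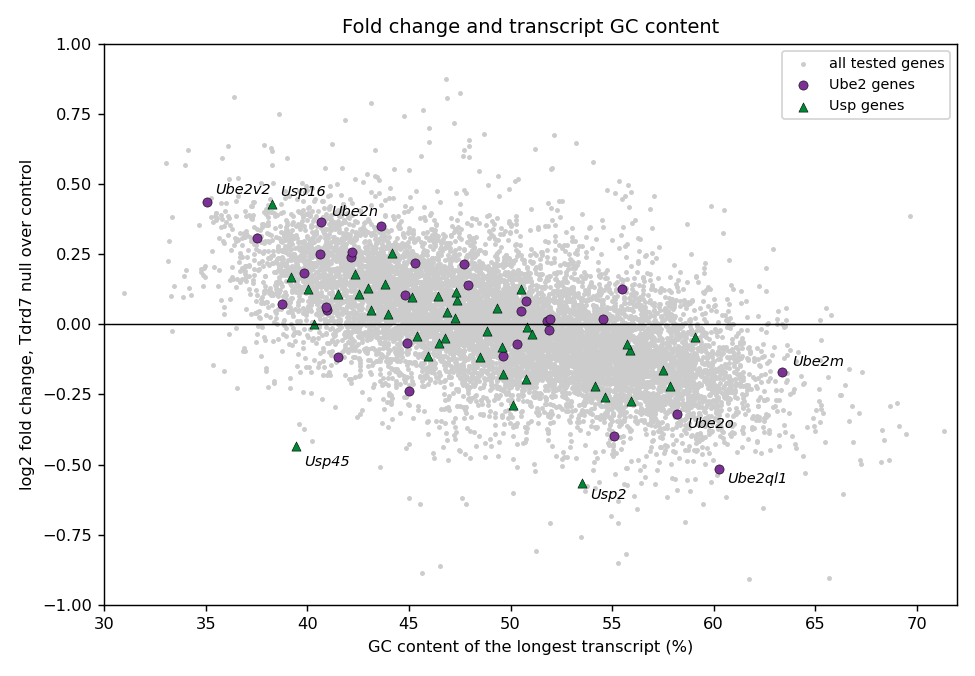
Log2 fold change against the GC content (%) of the longest transcript for the Ube2 genes (purple circles), the Usp genes (green triangles) and all tested genes (grey), with genes past 1 on either side of 0 outside the axis. Fold changes fall from left to right, and Usp45 at 39.4% GC and -0.44 stands below the other genes of its GC content among the 73.

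With the trend on GC content and length removed from each library, 0 of the 73 were called higher and 2 lower, where 3.29% of all genes passed (2.06% higher and 1.24% lower). The 2 were Usp45 and Usp2. Usp45 moved away from 0, to -0.60 (SE 0.0662, limma adjusted p = 0.000675), and 18 of 10656 genes had a value at or below it. Usp2 stood at -0.47 (SE 0.0957, limma adjusted p = 0.0204). At an unadjusted p under 0.05 in limma there were 16 of the 73 (21.9%), against 18.9% of all genes. Usp16 and Ube2n kept their direction without passing, at 0.21 and 0.20 (limma adjusted p = 0.0721 and 0.0859), and Usp16 passed when the principal transcript took the place of the longest. Ube2ql1 was at -0.32 (limma adjusted p = 0.106), Ube2o at -0.11 (0.211) and Ube2d3 at 0.11 (0.218). Ube2m turned to 0.04. How far base composition accounts for the calls among the 73 was not tested beyond this removal.

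**Figure D4:**
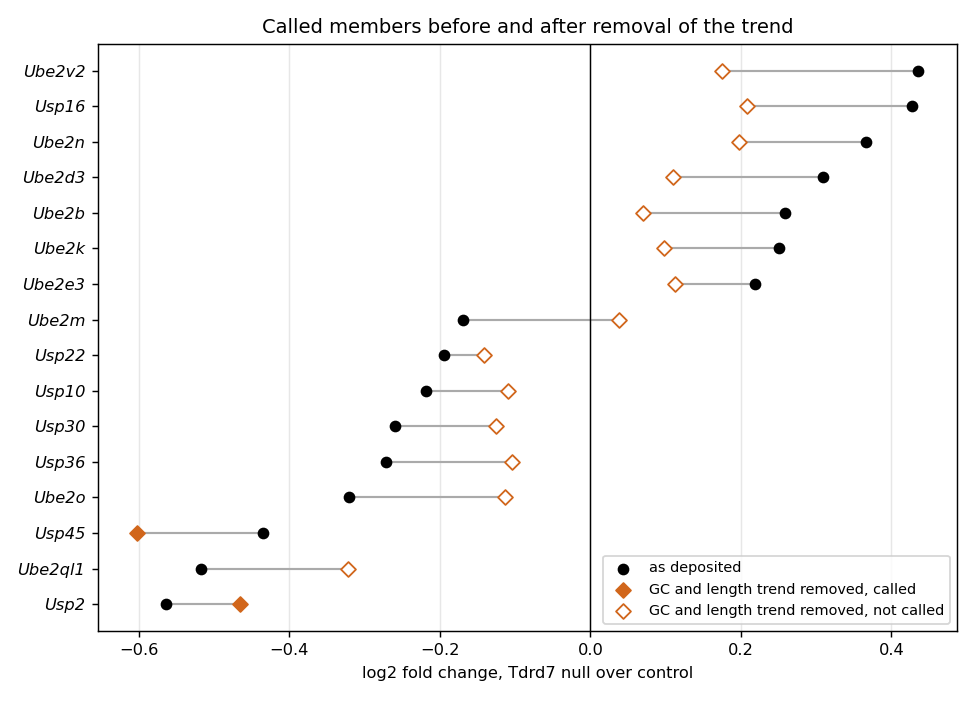
Log2 fold change of the 16 called genes as deposited (black) and after removal of the trend on GC content and length (orange, filled where still called). Of the 16, Usp45 alone moves away from 0, from -0.44 to -0.60, and Ube2m crosses it, from -0.17 to 0.04.

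The promoter sequences of the 2 genes called under both treatments, Usp45 and Usp2, and of the 2 clearest increases, Usp16 and Ube2n, are shown for reference. They are the 250 bases before the RefSeq start on GRCm38.p6, plus strand, 5′ to 3′, with capitals marking GGGCGG, the core letters bound by Sp1-type factors, or its reverse complement CCGCCC. The windows are chr4:21776020-21776269 for Usp45, chr9:44084670-44084919 for Usp2, chr16:87454735-87454984 for Usp16 and chr10:95514912-95515161 for Ube2n. The windows of Usp45, Usp2 and Usp16 lie inside the gene spans given above. For Usp45 and Usp2 the start used is well past the 5′ end of the span, and no window at that end was examined.
Usp45: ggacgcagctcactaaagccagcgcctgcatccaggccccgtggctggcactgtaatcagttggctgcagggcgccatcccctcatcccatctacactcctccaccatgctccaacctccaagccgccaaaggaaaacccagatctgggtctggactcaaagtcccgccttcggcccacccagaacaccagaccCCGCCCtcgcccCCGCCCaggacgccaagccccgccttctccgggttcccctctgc
Usp2: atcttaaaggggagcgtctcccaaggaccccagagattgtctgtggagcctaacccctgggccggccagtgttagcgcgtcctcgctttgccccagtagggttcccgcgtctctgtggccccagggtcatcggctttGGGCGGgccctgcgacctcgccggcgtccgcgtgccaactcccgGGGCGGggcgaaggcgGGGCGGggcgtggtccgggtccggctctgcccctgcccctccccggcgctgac
Usp16: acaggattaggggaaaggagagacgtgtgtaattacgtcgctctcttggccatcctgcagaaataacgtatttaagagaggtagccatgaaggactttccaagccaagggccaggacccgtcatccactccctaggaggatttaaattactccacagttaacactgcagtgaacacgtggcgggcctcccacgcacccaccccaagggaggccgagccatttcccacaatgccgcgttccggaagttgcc
Ube2n: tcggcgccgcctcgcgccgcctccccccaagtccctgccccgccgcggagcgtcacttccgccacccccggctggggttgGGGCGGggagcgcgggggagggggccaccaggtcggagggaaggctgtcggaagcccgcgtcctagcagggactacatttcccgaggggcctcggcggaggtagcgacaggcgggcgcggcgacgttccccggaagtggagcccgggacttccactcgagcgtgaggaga
Usp2 held 3 matches, Usp45 2 (both as CCGCCC), Ube2n 1 and Usp16 0.

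RefSeq windows were found for 57 of the 73 genes, 69 windows in all. GGGCGG on either strand was in 52 (75.4%) of them, against 59.5% of 10548 windows of listed genes and 32.7% of all 32851 windows. CCAAT on either strand was in 11 (15.9%), against 35.4% of listed genes' windows, and TATAAA on either strand in 5 (7.25%), against 5.81%. The heat shock element, searched as 3 alternating blocks of GAA and TTC spaced by 2 bases, was in 0 of 69 and in 0.408% of listed genes' windows. The windows had a median GC content of 69.2%, against 60.4% for listed genes. A match is a description of letters and not a binding site.

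Other genes of the pathway are given as counts to be read beside the 10.1% higher and 7.88% lower over all genes. Of 9 E1 enzyme genes 3 rose and 0 fell (median log2 fold change 0.08): Uba3 (0.22) and Nae1 (0.30), which together activate NEDD8, and Uba6 (0.30), which activates ubiquitin. Of 13 genes for ubiquitin and its relatives 5 rose and 2 fell (median 0.01). Ufm1 (0.39), a ubiquitin-like modifier, and Atg12 (0.24), which acts in autophagy, rose, and Fau (-0.34), which encodes a ribosomal protein fused to a modifier, fell. Of 9 E2-type genes with other symbols 3 rose (median 0.10), among them Tsg101 (0.27), an inactive E2 variant of endosomal sorting, and Atg10 (0.44), the E2-like enzyme for Atg12. With the trend removed, Ubl5 was the only called gene of these 3 lists, at 0.23.

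Among ligases, the cullin-RING core had 6 genes higher and 3 lower of 16 (median log2 fold change 0.13). Tceb1 (0.62), which encodes elongin C, and Rnf7 (0.34), the RING subunit for Cul5, rose, and both were still called with the trend removed, at 0.36 and 0.20. Cul1 (0.28) rose and Cand2 (-0.26) fell. Of 22 HECT ligase genes 1 rose, Herc4 (0.19), and 0 fell. Of 10 RBR ligase genes 2 fell, Rbck1 (-0.34) and Rnf31 (-0.32), which form the linear chain assembly complex. Of 16 genes of the anaphase-promoting complex 2 rose, Anapc13 (0.27) and Anapc10 (0.31), and its activator Fzr1 (-0.35) fell. With the trend removed, 0 genes of the HECT, RBR and anaphase-promoting complex lists were called.

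Of 34 deubiquitinase genes outside the Usp family 6 rose and 3 fell (median 0.00). Uchl3 (0.50), Brcc3 (0.40), a protease of the BRISC and BRCA1-A complexes, and Psmd14 (0.27), the deubiquitinase of the proteasome lid, rose. Stambpl1 (-0.31) fell and was the only one of them called with the trend removed, at -0.43. Of 11 proteases for SUMO, NEDD8 and UFM1, Senp6 (0.26) and Ufsp2 (0.20) rose. Of 11 partners and regulators of Usp proteins, Eny2 (0.31), which joins Usp22 in SAGA, and Stam (0.20), the endosomal partner of Usp8, rose, and none of the 11 fell. With the trend removed, 0 genes of these last 2 lists were called. Senp6 was then at 0.20, Eny2 at 0.10 and Stam at 0.03, and Ufsp2 turned to -0.12.

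Rescaling the libraries without the crystallin genes shifted all values toward lower in the Tdrd7 null lenses, with a median log2 fold change over all genes of -0.04. The 73 genes then split into 5 higher and 13 lower, against 7 and 9, and all genes into 766 and 1262, against 1077 and 843. Ube2b and Ube2e3 were the 2 calls lost.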

How the data were processed

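Per the labels, total RNA of pooled lenses was depleted of small RNA. Reads were paired, 75 nt long and from a kit that does not mark strand, per the series' design text. Trimmomatic, TopHat2 2.0.9, Cufflinks and Cuffnorm and the mm10 (GRCm38) build were used, per the submitters' processing notes, while no source used here says how reads were counted and scaled. Each deposited column holds 1 signal value per gene for 1 library. Within a tolerance of 0.01, values up to 100 are whole multiples of a step of 0.0237 to 0.0282 per library, as read counts divided by 1 factor would be. Values above 100 were not checked in this way, and this reading and the read totals from it are inferred from the values. Cuffnorm is known for FPKM, which would not share 1 step over genes. The gene with the lowest maximum reached 1.02, so low genes appear to have been left out before deposit.

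Values were tested as log2(scaled reads + 1), which understates the change of low genes, for 10696 genes whose mean was 1 or more, with limma 3.58.1 in R 4.3.3 (intensity-dependent prior, two-sided, Benjamini-Hochberg over all genes, residual degrees of freedom 2, prior 11.1), and the scripts were tested on simulated data. The values are scaled, so no count model was used. An exact permutation test of 2 against 2 libraries cannot go below p = 0.333. The longest transcript in GENCODE M21 gave GC content and length (10750 of 10790 genes), and their trend was removed per library with natural splines of 5 degrees of freedom each. The genes described and all lists were chosen with earlier results of these data known. Named genes were those called, the 10 highest in level or fold change, those that share sequence, role partners, and up to 3 per pathway list by smallest p. Cct8, Rpl28, Thoc1, Fau, Cand2, Ubl5 and Stambpl1 were chosen after their values were seen. Some genes that these rules take are counted but not reported here by name. There were 19 alternatives, and a crossed replicate pairing and principal transcripts were added after seeing the data.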

Additional observations from a re-analysis of the deposited data

How the results depend on the processing

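The counts of called Ube2 and Usp genes (7 higher and 9 lower) depended on the prior, on single libraries and on base composition, and the numbers below are higher and then lower. The main fit called 18.0% of all genes. With a limma prior without the intensity trend the counts were 0 and 0. Under that prior 24 of the 73 had an unadjusted p under 0.05, and all genes gave 9 and 7 calls. With the trend on GC content and length removed there were 0 and 2, where 3.29% of all genes were called. That removal and the replicate block together gave 1 and 4 (5.47% of all genes). Principal transcripts for that trend gave 1 and 2 (3.12% of all genes). At an adjusted p under 0.1 there were 13 and 13 (26.6% of all genes). Leaving out 1 library gave 3 to 8 and 2 to 11: without control replicate 1 there were 3 and 2, without control replicate 2 there were 3 and 3, without Tdrd7 null replicate 1 there were 8 and 11, and without Tdrd7 null replicate 2 there were 5 and 5. With 1 library left out, the lone library of that genotype is assumed to vary like the others. Calls over all genes also became fewer without either control replicate or without Tdrd7 null replicate 2, and more numerous without Tdrd7 null replicate 1. A call that ended in this way is therefore not particular to the gene. The numbers 1 and 2 are shared between genotypes without a stated link, and same-numbered libraries did not deviate together (correlation -0.15). With the replicate number as a block there were 9 and 11 (19.8% of all genes were called), and 15 of the 16 calls were among them. The crossed pairing gave 14 and 14, where 28.4% of all genes were called. Ube2m reversed to 0.038 with the trend removed, with or without the block, and to 0.040 with principal transcripts. Tdrd7 was at -3.08 with a limma adjusted p of 0.0555 under the robust prior, and leaving out 1 library gave -2.69 to -3.46. Pseudocounts, filters, the other scalings and the robust prior left each count of called genes within 1.5 times its value. The cause of these differences was not tested. With 2 pools per genotype, the 95% intervals reached 0.11 to 0.30 to either side on the log2 scale, depending on the gene. Differences within that reach could not be told from 0. A call at the adjusted threshold needed more, and 13 genes whose intervals left out 0 were not called, among them Ube2v1 at -0.40.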
